A study of Mus musculus with 2 samples.

Results

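G2/M and mitosis genes are those whose products carry a cell from the end of DNA replication through division: the mitotic cyclins and kinases, the spindle checkpoint, kinetochores, mitotic kinesins, the cytokinesis machinery and condensin. The 58 genes described here were chosen by name for these roles and not by a cut on their values, although with earlier results of these data known. All 58 were found among the 21628 entries of the expression table. Lingual epithelium of neonatal mice (P0) of genotype Sox2GFP, which carry a SOX2-GFP reporter, was peeled with pancreatin and trypsin, digested with collagenase and elastase, and pooled over pups. Live, non-autofluorescent cells were then sorted by brightness of the reporter into a GFP high and a GFP low population, both from the same genotype and age and both GFP-positive. Approximately 100000 cells per population gave 1 mRNA-seq library each, so every value below is from 1 library and no difference had a replicate check. The populations were bins cut from a continuum of reporter brightness, and the GFP negative cells of the sort were not analysed here.

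Entry into mitosis is driven by cyclin B bound to CDK1, which is switched on by CDC25 phosphatases and sustained by Aurora and Polo-like kinases. Transcripts of these genes accumulate late in the cell cycle, when the MuvB complex with B-MYB and FOXM1 replaces the repressing DREAM complex at their promoters, commonly through a CHR element near the start site and NF-Y bound CCAAT boxes upstream of it. In stratified lingual epithelium, division takes place mainly in the basal layer, among the keratinocyte progenitors that also supply taste buds.

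Of the 58 genes, 55 (94.8%) had a higher FPKM (fragments scaled to transcript length and to library size) in GFP high cells, beside 44.6% of the 10760 genes tested, which were those with 5 FPKM or more in at least 1 population. The differences were small: the median gene was 1.34-fold higher in GFP high cells, and none reached 2-fold. The cut-off, based on that of the authors, was a ratio of 1.5 or more with at least 5 FPKM in the enriched population. At this cut-off 15 of 58 (25.9%) were higher in GFP high cells, beside 9.48% of all genes tested. In GFP low cells 0 were higher, beside 8.90%. Another 21 lay between 1.25-fold and 1.5-fold, so that 36 (62.1%) reached a ratio of 1.25 or more toward GFP high, beside 17.7% of all genes. The median difference in log2(FPKM + 1) was 0.40 over the 58 genes and -0.04 over all genes tested. Summed over the 58 genes, 3943 FPKM in GFP high cells stood against 2945 in GFP low cells. In these bulk libraries, more cells in G2 or mitosis and more of these transcripts per dividing cell cannot be told apart.

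The shift was broad rather than carried by a few genes: 48 of the 58 lay above the upper quartile of the ratios of all genes and 16 above the 90th percentile. None lay below the lower quartile. These positions do not depend on how the libraries were scaled to each other, which mattered here. Rescaling both libraries to TPM (transcripts scaled to a common total) moved every log2 ratio by -0.10, which left 52 of 58 genes higher in GFP high cells, beside 33.7% of all genes, and 8 past the 1.5-fold cut-off, beside 7.50% of all genes. On that scale the GFP high side took 39.8% of all genes past the cut-off, against 51.6% as deposited.

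**Figure D1:**
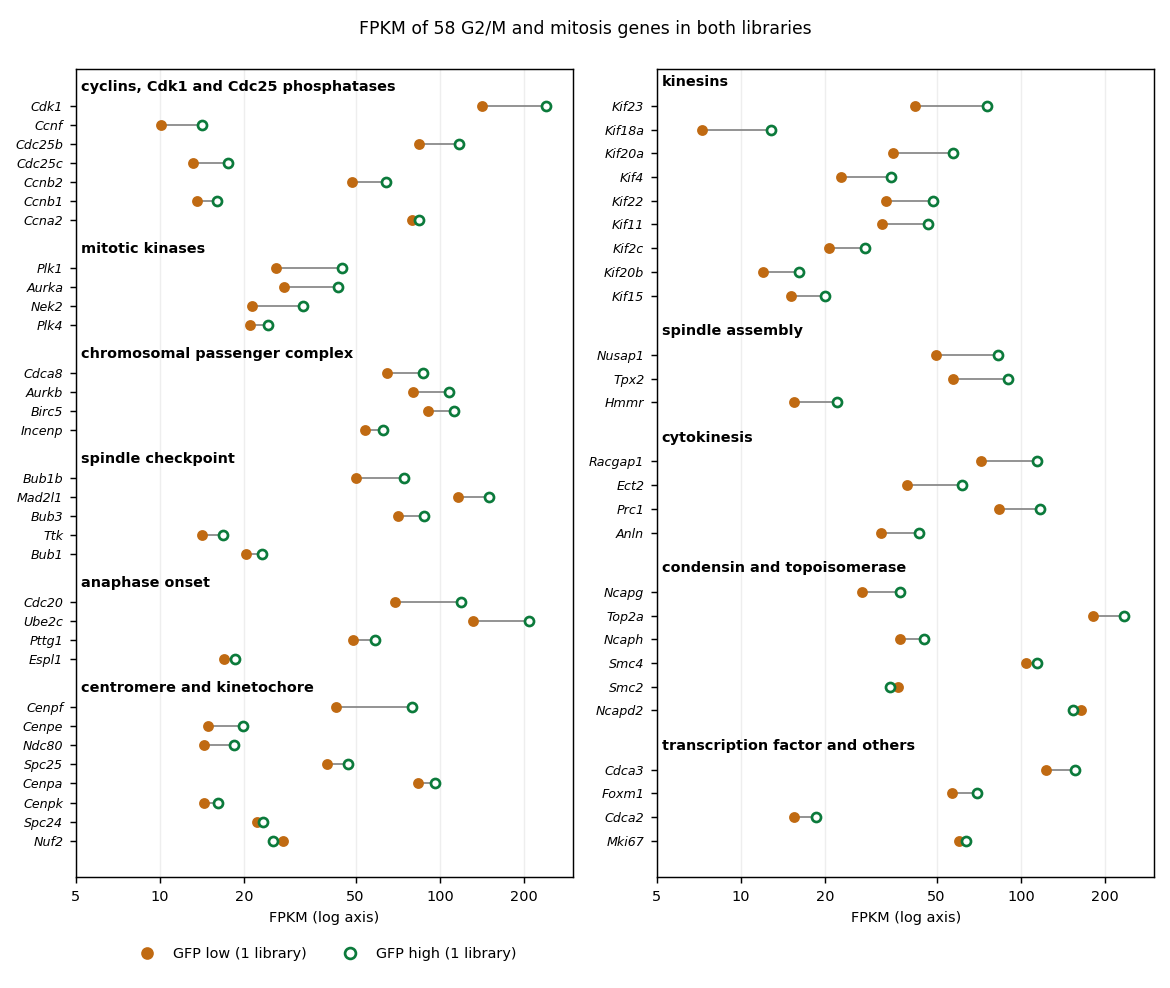
FPKM (log axis) of each of the 58 genes in the GFP low library (filled orange) and the GFP high library (open green), 1 library each, joined by a line and grouped by role. The open point lies to the right of the filled one for 55 genes, and to its left for Nuf2, Smc2 and Ncapd2.

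The promoters of the 5 genes with the largest ratios are shown, together with that of Cdk1. Cdk1 was added after its values were seen because it is the kinase the programme centres on. Promoters are shown because most of the genes for which one was found held elements that were not used to choose the genes. Each window runs from 100 bases before the annotated start site to 20 bases after it (RefSeq, GRCm38.p6, the patch release of mm10), so that it ends inside the first exon. Capitals mark CCAAT, the NF-Y box, and TTTGAA, the core of the CHR element, either of them read on either strand, so that ATTGG is CCAAT on the other strand.
Cenpf, chr1:189688067-189688186, minus strand: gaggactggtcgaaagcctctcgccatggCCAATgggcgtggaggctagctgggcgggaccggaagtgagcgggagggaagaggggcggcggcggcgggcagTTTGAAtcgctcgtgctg
Kif23, chr9:61946780-61946899, minus strand: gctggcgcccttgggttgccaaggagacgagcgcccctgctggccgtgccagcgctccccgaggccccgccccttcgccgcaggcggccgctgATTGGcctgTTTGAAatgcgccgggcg
Kif18a, chr2:109280638-109280757, plus strand: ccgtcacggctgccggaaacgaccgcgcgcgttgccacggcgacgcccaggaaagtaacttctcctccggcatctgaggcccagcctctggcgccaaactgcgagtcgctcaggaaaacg
Cdc20, chr4:118437324-118437443, minus strand: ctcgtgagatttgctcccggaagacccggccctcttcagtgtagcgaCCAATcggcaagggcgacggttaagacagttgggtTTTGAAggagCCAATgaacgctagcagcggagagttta
Plk1, chr7:122159335-122159454, plus strand: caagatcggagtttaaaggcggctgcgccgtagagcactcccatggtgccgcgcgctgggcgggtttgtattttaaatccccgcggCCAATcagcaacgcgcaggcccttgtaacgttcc
Cdk1, chr10:69352893-69353012, minus strand: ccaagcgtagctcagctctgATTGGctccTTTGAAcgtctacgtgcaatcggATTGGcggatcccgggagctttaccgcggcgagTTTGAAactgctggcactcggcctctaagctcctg

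In Cenpf, Kif23 and Cdc20 a TTTGAA lay close to the start site with a CCAAT before it. The Cdk1 window held a pair of each. Plk1 had CCAAT in the window and its TTTGAA further into the transcript, and the Kif18a window held neither. Promoters of 300 bases (250 before the start and 50 after it) were found for 48 of the 58 genes, and a gene was counted where any of its promoters held the motif. Among them, 34 of 48 (70.8%) held TTTGAA, beside 14.0% of the 8232 tested genes with a promoter and 20.2% of all 27025 genes with one. CCAAT was in 35 (72.9%), beside 42.9% of tested genes and 41.1% of all genes, and 24 of 48 held it at least 2 times, beside 17.1% of tested genes. The rarer CHR core TTCGAA was in 4 (8.33%), beside 2.48% of tested genes and 1.80% of all genes. A CHR core of either spelling together with CCAAT was in 31 of 48 genes (64.6%), beside 6.83% of tested genes. None of these motifs can overlap another except by sharing end bases, and a match is a run of letters, not a bound site.

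The TTTGAA matches also sat in a narrow place. With 1 promoter a gene, 28 of 45 TTTGAA matches (62.2%) began within 30 bases of the start site on either side, beside 15.2% of the 5639 matches over all genes, and their median position was -14 against -124. CCAAT matches lay further upstream, with a median of -71 over 77 matches, against -91 over all genes. They were less confined, with 23.4% beginning within 30 bases of the start site, beside 16.7% over all genes.

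**Figure D2:**
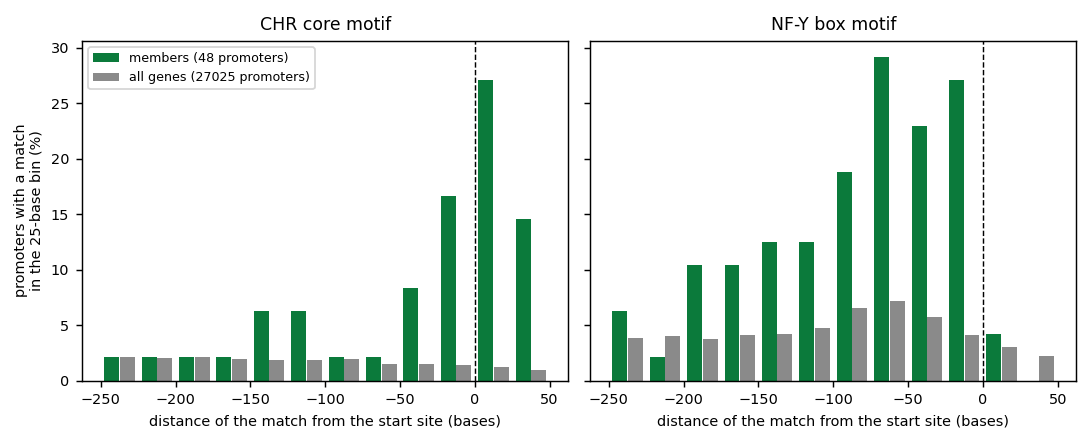
Share of promoters (%) with a match beginning in each 25-base bin, by distance from the start site in bases, for the CHR core (left) and the NF-Y box (right), in the 48 promoters of the G2/M and mitosis genes (green) and in 1 promoter for each of 27025 genes (grey). The CHR core is counted here as TTTGAA only. In the green bars it peaks just after the start site at 27.1%, and the NF-Y box peaks between 75 and 50 bases before it at 29.2%. The grey bars of the NF-Y box peak in that same bin, at 7.17%.

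Among the 48 genes, the ratio between libraries was above parity with and without the motif. The median was 1.36-fold for the 36 with a CHR core and 1.23-fold for the 12 without one. The cut-off was met by 10 of the 36 and 3 of the 12, nearly the same share. For CCAAT the median was 1.39-fold for the 35 with it, of which 11 met the cut-off. It was 1.30-fold for the 13 without CCAAT, of which 2 did. Among all tested genes with a promoter, these 48 included, 9.18% with CCAAT met the cut-off, beside 8.72% without it. For the CHR core these shares were 10.1% and 8.68%. With a CHR core and CCAAT together, 10 of 31 met the cut-off, and 3 of the other 17. Of all tested genes with both, 47.2% of 562 were higher in GFP high cells and 11.4% met the cut-off, beside 43.8% and 8.74% of the 7670 others. The 562 include the 31 genes just described, of which 29 were higher and 10 met the cut-off. Part of that difference is therefore theirs. These differences were not tested.

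At the head of the programme, Cdk1, the kinase that drives mitotic entry, was at 239.49 FPKM in GFP high against 141.58 in GFP low cells, the highest level of the 58 genes in GFP high cells and 1.69-fold above GFP low cells. Its partners differed less. Ccnb1 and Ccnb2, the B-type cyclins, were at 16.03 against 13.58 and at 64.35 against 48.49 FPKM, so that Ccnb2 was 4.01 times Ccnb1 in GFP high cells and 3.57 times in GFP low cells. The Ccnb1 value is uncertain, since 23.4% of its 50-base windows also occur in other annotated transcripts, chiefly those of a pseudogene of it. Ccna2, the cyclin of S phase and G2, was nearly level at 84.27 and 79.71 FPKM (log2 ratio 0.08), and was lower in GFP high cells on the TPM scale (-0.02). Ccnf, an F-box protein that rises in G2, was at 14.17 and 10.04 FPKM. The phosphatases that switch CDK1 on differed alike, Cdc25b at 116.94 and 83.95 FPKM and Cdc25c at 17.53 and 13.13. Of these 7 genes only Cdk1 met the cut-off.

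The mitotic kinases were among the groups with the largest differences. Plk1, which acts from mitotic entry to cytokinesis, was at 44.72 FPKM in GFP high against 26.02 in GFP low cells (1.72-fold). Aurka, the Aurora kinase of the centrosome and spindle poles, was at 43.38 and 27.83 FPKM (1.56-fold). Nek2, which separates the centrosomes, was at 32.51 and 21.36 FPKM (1.52-fold). These 3 met the cut-off, while on the TPM scale Aurka and Nek2 did not, nor did Nek2 with a pseudocount of 1. Plk4, which licenses centriole duplication earlier in the cycle, was at 24.26 and 20.96 FPKM, a log2 ratio of 0.21 against 0.78 for Plk1.

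The chromosomal passenger complex, which corrects attachments at centromeres and then moves to the midzone, was measured through all 4 subunits, and these stayed close to each other. Its kinase Aurkb was at 108.01 FPKM in GFP high against 80.31 in GFP low cells. Cdca8, the borealin subunit, was at 86.93 and 64.47 FPKM, and Birc5, survivin, at 112.23 and 90.36. The scaffold Incenp had the lowest ratio, 62.82 against 54.04 FPKM. The 4 log2 ratios ran from 0.22 to 0.43 and none met the cut-off.

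The spindle checkpoint genes, whose products hold back anaphase until every kinetochore is attached, were all higher in GFP high cells and none met the cut-off. Bub1b, which encodes BUBR1, came nearest, at 74.47 FPKM in GFP high against 50.06 in GFP low cells (1.49-fold). Mad2l1, the checkpoint's inhibitor of CDC20, was at 150.31 and 115.91 FPKM. Bub3 was at 87.64 and 70.85 FPKM. The 2 upstream kinases differed less, Ttk at 16.83 and 14.13 FPKM and Bub1 at 23.20 and 20.30.

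The genes of anaphase onset split. Cdc20, the activator of the anaphase-promoting complex (APC/C) and the checkpoint's target, was at 118.93 FPKM in GFP high against 69.01 in GFP low cells (1.72-fold). Ube2c, the ubiquitin-conjugating enzyme that works with the APC/C, was at 207.76 and 130.93 FPKM (1.59-fold). Both met the cut-off, which Ube2c lost on the TPM scale. The substrate and its partner lay closer to parity, Pttg1, securin, at 58.72 and 49.09 FPKM and Espl1, the separase it inhibits, at 18.48 and 16.86. Of the exon bases of Ube2c, 22.8% overlap those of a neighbouring gene.

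Kinetochore genes covered the widest range. Cenpf, a large protein of the outer kinetochore and nuclear envelope that accumulates in G2, had the largest ratio of the 58, with 79.65 FPKM in GFP high against 42.37 in GFP low cells (1.88-fold). Nuf2, a subunit of the microtubule-binding Ndc80 complex, had the lowest, with 25.37 and 27.61 FPKM. Its 3 partners in that complex were at or above parity, Ndc80 at 18.37 and 14.31 FPKM, Spc25 at 46.91 and 39.60, and Spc24 at 23.31 and 22.13 (log2 ratio 0.07, and -0.03 on the TPM scale). The 4 subunits of the complex thus ran from -0.12 to 0.36 in log2 ratio. Cenpe, the kinetochore kinesin, was at 19.78 and 14.81 FPKM. The histone variant Cenpa, which marks the centromere, was at 95.96 and 83.22 FPKM, and Cenpk, of the constitutive centromere network, at 16.13 and 14.39.

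Mitotic kinesins, the motors that build and elongate the spindle, were the largest of the groups in which every gene had a ratio of 1.25 or more toward GFP high. Of these 9 genes, 4 met the cut-off. Kif23, the motor subunit of centralspindlin, was at 75.76 FPKM in GFP high against 41.75 in GFP low cells (1.81-fold). Kif18a, which dampens chromosome oscillation at the metaphase plate, had the lowest level of the group, 12.74 and 7.27 FPKM (1.75-fold). Kif20a, which brings the passenger complex to the midzone, was at 57.31 and 34.93 FPKM (1.64-fold), although 29.3% of its exon bases overlap those of another gene. Kif4, the chromokinesin, sat on the cut-off with 34.29 and 22.83 FPKM, and fell short of it on the TPM scale or with a pseudocount of 1 or 0.1.

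The 5 other kinesins lay below it. Kif22 was at 48.39 and 33.05 FPKM (1.46-fold) and Kif11, the motor that pushes the poles apart, at 46.43 and 31.96 (1.45-fold). Kif2c, a microtubule depolymerase at centromeres, was at 27.73 and 20.59 FPKM. Kif20b was at 16.16 and 12.02 FPKM, and Kif15, which can stand in for Kif11, at 20.01 and 15.02.

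Spindle assembly and cytokinesis genes followed the kinesins. Nusap1, which bundles microtubules near chromatin, was at 83.05 FPKM in GFP high against 49.72 in GFP low cells (1.67-fold). Tpx2, the activator of Aurora A on the spindle, was at 89.81 and 57.23 FPKM (1.57-fold), and Hmmr was at 22.03 and 15.40. In cytokinesis, Racgap1, the partner of Kif23 in centralspindlin, was at 114.18 and 71.82 FPKM (1.59-fold). Ect2, the RhoA exchange factor that centralspindlin recruits to the midzone, was at 61.62 and 39.13 FPKM (1.57-fold). With Kif23 these 3 genes of a common step ran from 0.66 to 0.86 in log2 ratio and each met the cut-off, although on the TPM scale Racgap1, Ect2 and Tpx2 did not. Prc1, the bundler of midzone microtubules, was at 116.78 and 83.57 FPKM, and Anln, the anillin of the cleavage furrow, at 43.06 and 31.64.

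Condensin and topoisomerase genes lay closest to parity. Ncapd2 was lower in GFP high cells, at 153.04 and 164.18 FPKM, as was Smc2, at 33.98 and 36.43, each with a log2 ratio of -0.10. Smc2 and Smc4 form the core that both condensins share, and Smc4 was at 114.14 and 104.43 FPKM. The other condensin I subunits were higher in GFP high cells, Ncapg at 37.00 and 27.08 FPKM and Ncaph at 44.88 and 36.92. Top2a, which untangles sister chromatids, was at 232.81 and 181.51 FPKM, the highest level of the 58 genes in GFP low cells. None of the 6 met the cut-off.

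The remaining 4 genes lay below the median ratio of the whole set. Foxm1, the transcription factor of the programme, was at 69.59 FPKM in GFP high against 56.60 in GFP low cells. Cdca3 was at 156.53 and 123.39 FPKM, and Cdca2, a chromatin targeting subunit of protein phosphatase 1, at 18.50 and 15.40. Mki67, the Ki-67 antigen that is used as a marker of cycling cells at large, was almost level, at 63.91 and 60.08 FPKM, a log2 ratio of 0.09 that became -0.01 on the TPM scale.

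Ordered by median difference in log2(FPKM + 1), the groups ran from spindle assembly (0.64), mitotic kinases (0.60), cytokinesis (0.56) and kinesins (0.54) through anaphase onset (0.46), cyclins with Cdk1 and Cdc25 (0.40), the passenger complex (0.37), the checkpoint (0.30) and the remaining genes (0.27) to kinetochore (0.22) and condensin with topoisomerase (0.20). Groups of 3 to 9 genes from 1 pair of libraries overlapped widely, so their order is descriptive. The log2 ratio was unrelated to expression level across the 58 genes (Pearson r 0.10 and Spearman rho 0.11 against log2 mean FPKM), to exon length (r -0.01) and little related to the share of sequence in common with other genes (r 0.18, rho 0.15). These are across genes of the same pair of libraries, which are not independent. Among the 8320 genes whose mean FPKM lay within the range of the 58, 7.76% met the cut-off in GFP high cells, a background chosen after the values were seen.

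**Figure D3:**
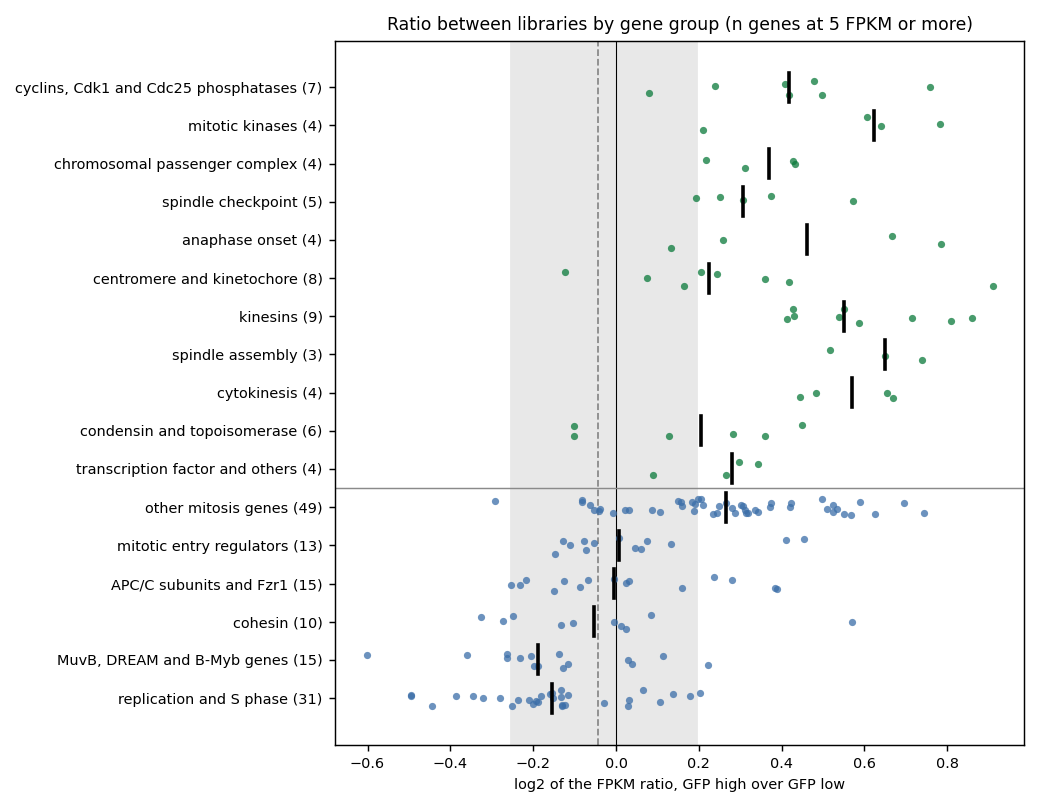
Log2 of the FPKM ratio between GFP high and GFP low cells for each gene (points) and the group median (black bars), for the 11 groups of the 58 genes (green) and 6 other cell cycle lists (blue), with the number of genes at 5 FPKM or more in brackets. The grey band spans the lower to upper quartile of all 10760 genes tested and the dashed line their median; 48 green points lie to the right of the band, while most blue points of the replication list lie to the left of the dashed line.

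Cell cycle genes outside the 58 did not share a common direction. Of 52 other mitosis genes, 44 were higher in GFP high cells, 4 met the cut-off, a share below the 9.48% of all genes, and 0 met it in GFP low cells. Their median difference in log2(FPKM + 1) was 0.25, and 0.15 on the TPM scale. The largest differences were those of Aspm, a spindle pole protein, at 14.88 FPKM in GFP high against 8.88 in GFP low cells, Sgol2, the shugoshin that protects cohesin, at 12.1 and 7.47, and the kinase Melk, at 20.85 and 13.51.

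Replication and S phase genes leaned slightly the other way. Of 31, 24 were lower in GFP high cells, beside 5962 of the 10760 genes tested. On the TPM scale 27 were lower, where 33.7% of all genes were higher in GFP high cells. With GFP low scaled by the median ratio, 23 were lower. Below the median ratio of all genes lay 23 of the 31, and 7 lay below the lower quartile, about the share that a quartile holds. In either direction 0 met the cut-off, and the median difference was -0.15, beside -0.04 over all genes tested. Mcm10, Mcm7 and Gins2, whose products form or activate the replicative helicase, had the largest differences. They were at 11.42 against 16.1, 20.27 against 28.56 and 40.54 against 55.18 FPKM in GFP high and GFP low cells. Within a library, where no scaling between libraries enters, the summed FPKM of the 58 genes was 3.02 times that of the S phase genes in GFP high cells and 2.06 times in GFP low cells. TTTGAA was in 3 of 26 S phase promoters (11.5%) and CCAAT in 61.5% of them, while 52.5% of 40 promoters of the other mitosis genes held TTTGAA.

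**Figure D4:**
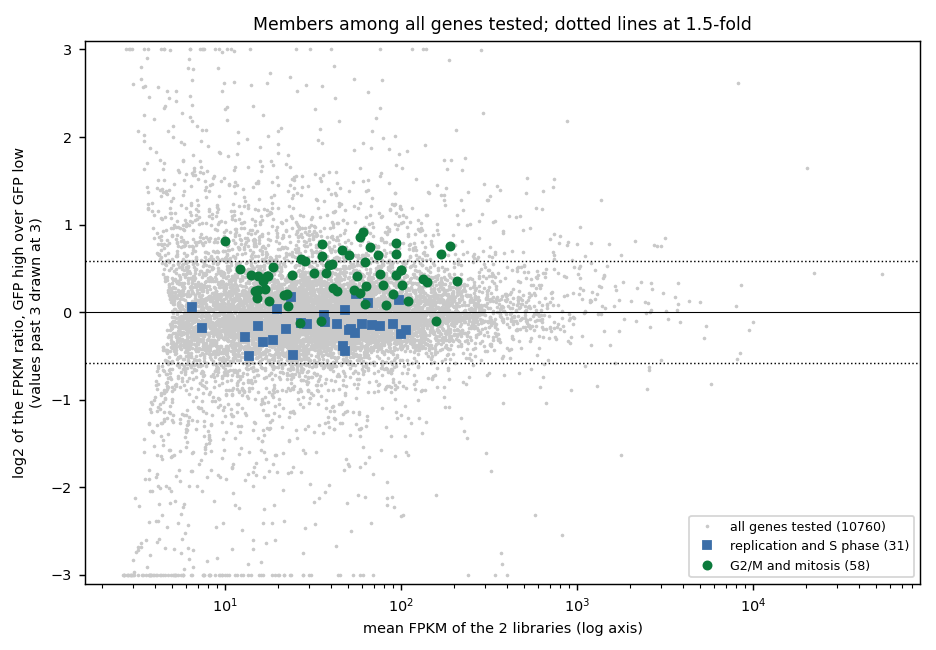
Log2 of the FPKM ratio between GFP high and GFP low cells against the mean FPKM of the 2 libraries (log axis) for all 10760 genes tested (grey), the 58 G2/M and mitosis genes (green circles) and 31 replication and S phase genes (blue squares). The green points lie mostly between parity and the upper dotted line (1.5-fold), with 15 at or past it and 3 below parity, and the blue points lie mostly below parity.

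The regulators around the programme lay nearer to parity as deposited. Of 15 APC/C subunits with Fzr1, 7 were higher in GFP high cells and the median difference was 0.00 (0.04 when GFP low was scaled by the median ratio), with Anapc2 at 222.02 and 169.44 FPKM and Fzr1, the late mitotic activator, at 74.9 and 57.41. The cohesin list held 4 of 10 higher in GFP high cells (median -0.05), and 1 of 10 on the TPM scale (median -0.15), led by Cdca5, the sororin that stabilises cohesion, at 20.89 and 14.07 FPKM. Of 13 compared mitotic entry regulators, 7 were higher in GFP high cells, with a median of 0.01 that turned to -0.08 on the TPM scale. Wee1, the kinase that holds CDK1 off, was at 36.08 and 27.15 FPKM, and Arpp19, which restrains the phosphatase opposing CDK1, at 609.22 and 444.67. None of these 3 lists had a gene past the cut-off.

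The list of MuvB, DREAM and B-Myb genes also held Rb1 and the NF-Y genes Nfya, Nfyb and Nfyc. Of its 16 genes, 12 were lower in GFP high cells (median -0.16), beside 5962 of the 10760 genes tested. Of the 15 at 5 FPKM or more, 4 lay below the lower quartile of all genes. Rb1, the retinoblastoma protein, met the cut-off in GFP low cells, at 25.39 FPKM in GFP high against 38.54 in GFP low cells. Nfyb, a subunit of NF-Y, was at 38.66 and 49.62 FPKM. The 4 that were higher in GFP high cells, named after their values were seen, were Mybl2, which encodes B-MYB, at 32.63 and 27.99 FPKM, and the MuvB genes Lin9, Lin37 and Lin54, with log2 ratios of 0.11, 0.04 and 0.03, of which the last 2 turned on the TPM scale. The G1 regulators diverged most: Ccnd1, cyclin D1, was at 44.91 FPKM in GFP high against 139.83 in GFP low cells, while the inhibitors Cdkn2b, at 12.46 and 5.62, and Cdkn1c, at 158.56 and 103.68, were past the cut-off in GFP high cells. Of the 10 genes of that list, 5 were higher in each population.

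The populations also differed in cell type markers, and these moved in the same libraries as the G2/M genes. Basal keratinocyte markers were lower in GFP high cells for 7 of 7 genes (median difference -0.38, summed FPKM 25796 against 32952), Krt14 being at 6672 and 9635 FPKM. Suprabasal keratinocyte markers were higher for 7 of 8 genes (median 1.14, summed 51688 against 17147), led by Krt4, at 14203 and 2323 FPKM. Taste bud markers were higher for 8 of 8 (median 1.11, summed 374 against 192), with Shh at 20.74 and 0.84.

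The GFP low library held more transcripts of Schwann and fibroblast markers. Schwann lineage markers were lower in GFP high cells for 9 of 9 genes (summed FPKM 76.3 against 319), Sox10 at 0.51 and 42.73 and Foxd3 at 0.12 and 19.01. Fibroblast markers were lower for 9 of 11 (summed 468 against 1912), Col3a1 at 193.26 and 966.16.
Mast cell markers (5 of 6, summed 28.3 against 5.35) and erythroid markers (6 of 6, summed 118 against 41.0) were higher in GFP high cells. Endothelial markers were higher in GFP high cells for 8 of 9 (summed 40.2 against 29.2), melanocyte markers for 3 of 6 compared (median 0.02, -0.02 on the TPM scale), leukocyte markers for 3 of 7 and skeletal muscle markers for 4 of 8. Many of these directions rest on low values. Only 3 mast cell, 3 erythroid, 2 endothelial, 2 melanocyte, 1 leukocyte and 2 skeletal muscle markers reached 5 FPKM in at least 1 population. Among the defining markers of these cell types, Tyr was listed at 0 in both libraries, Mlana, Cd3e and Ms4a2 at 0 in GFP high cells and Fcer1a at 0 in GFP low cells. The part of these cell types in the difference of the G2/M genes was not tested.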

How the data were processed

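SOX2-GFP lingual epithelial cells of P0 pups were sorted by reporter brightness, with 1 stranded poly(A) library for each of the populations, read in 1 direction over 50 bases to about 75000000 reads per the labels. The authors trimmed reads with Trimmomatic 0.36, mapped them to mm10 with GSNAP and made the deposited FPKM values with Cufflinks 2.2.1, which divide fragments by transcript length and library size. The gene annotation they used is not given in the sources used here. A deposited column with the authors' own fold score between populations was not used. Whether strand was used in counting is not given in the sources used here. Steps between low values placed about 27250000 (GFP high) and 35750000 (GFP low) reads behind them, a rough estimate, since 63.2% and 63.6% of the values came out within 0.15 of a whole read against 30.0% for evenly spread values, so no count model was run. On that estimate the 58 genes rested on about 1507 to 57187 reads each. These numbers use the combined length of all annotated exons of a gene, so they overstate the reads where the expressed transcript is shorter.

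Ratios were taken from FPKM as deposited, for entries with 5 FPKM or more in at least 1 population. They were called at 1.5-fold with 5 FPKM in the enriched population. Of 21628 entries, 21607 were kept, and the 21 left out are listed in GENCODE M21 under a type that is not protein-coding. Entries that release does not list were kept, as were immunoglobulin, T cell receptor and polymorphic entries. Lists were described on log2(FPKM + 1), which understates differences of low genes. With 1 library per population no p-value was computed. All 58 genes are named. Of each other list, the 3 genes at 5 FPKM or more with the largest ratio could be named, and promoters were printed for the 5 with the largest ratio outside chromosome 18. Members and lists were chosen with earlier results of these data known. Exon overlap and shared 50-base windows came from GENCODE M21 transcripts. The 1.25-fold count was added after the values were seen. Motifs were searched on both strands in RefSeq promoters. The calling step was tested on simulated data with planted differences larger than the cut-off and little noise. That run checks the code and says nothing about ratios near the cut-off. Python 3.11.15, numpy 2.4.6 and pandas 2.3.3 were used.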

Additional observations from a re-analysis of the deposited data

How the results depend on the processing

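No paired analysis was possible because each population has 1 library, and no library could be left out. The 15 genes past the cut-off in GFP high cells became 0 at a ratio of 2 or more (beside 4.16% of all genes), 8 on the TPM scale (beside 7.50%) and 13 with a pseudocount of 1, and genes higher in GFP low cells went from 3 to 6 on the TPM scale. The median difference of the 58 genes stayed between 0.30 (TPM) and 0.43. Of 232 recomputed ratios of these genes, 217 kept their direction and side of the cut-off, 10 lost the cut-off, 2 gained it (Bub1b and Kif22, with GFP low scaled by the median ratio) and 3 turned, Ccna2 to -0.020, Spc24 to -0.025 and Mki67 to -0.011, each on the TPM scale. Of the other lists, APC/C subunits turned to 0.036 with GFP low scaled by the median ratio, and mitotic entry regulators to -0.082 and melanocyte markers to -0.024 on the TPM scale. These turns follow from the shift each scale applies to every ratio. Both libraries came from 1 pool of animals, and without replicates, differences between library preparations cannot be told apart from population differences, and a ratio near 1.5 can fall on either side.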
